A study of Caenorhabditis elegans with 2 samples.

Results

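The genes described here are a part of the immune effector and infection response genes of Caenorhabditis elegans. They were chosen by name alone, as the protein-coding genes of the WBcel235 annotation whose symbol starts with lys-, ilys-, spp-, cnc-, abf- or irg-, and 72 of the 19973 such genes on nuclear chromosomes met this rule. The families hold 10 lys-, 6 ilys-, 31 spp-, 11 cnc-, 6 abf- and 8 irg- genes. The irg- genes were named for their response to infection and are not a protein family. The ChIP-seq experiment, in which chromatin is precipitated and its DNA sequenced, located DVE-1, a homeodomain protein known for its role in the mitochondrial unfolded protein response. The chromatin came from whole hermaphrodites at the L4 larval stage of strain OP398, genotype unc-119(tm4063) III; wgIs398, in which a transgene expresses DVE-1 with GFP and FLAG at its C-terminus, and a GFP antibody was used for the precipitation. There was 1 group with 2 biological replicates from separate biosamples, no untagged or stressed worms were analysed here, and no test between conditions was possible. Library depth is unknown, because the peak lists hold no numbers of reads. The worms were analysed whole, so more cells with DVE-1 at a gene and more DVE-1 per cell cannot be told apart, nor can tissues.

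Lysozymes cleave the peptidoglycan of bacterial cell walls. The lys- genes encode the protist-type and the ilys- genes the invertebrate-type enzymes. The spp- genes encode saposin-like proteins, among them the caenopores, which form pores in bacterial membranes. Both lys- and spp- genes are known chiefly as intestinal genes, where the worm meets the bacteria it eats. The caenacins of the cnc- family are antimicrobial peptides of the epidermis that are known to respond to fungal infection and wounding, and the abf- genes encode defensin-like peptides. The tissues are background knowledge of the families and were not measured.

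A gene is called marked where a peak had its summit at most 1000 bp before or 200 bp after any 5′ end that the annotation gives the gene. The peaks are the 7262 of the authors' optimal list on ce11. Of the 72 genes, 21 were marked (29.2%), beside 21.7% of all protein-coding genes. They are lys-1, lys-2, lys-4, lys-6, lys-8, ilys-5, spp-1, spp-2, spp-3, spp-4, spp-5, spp-6, spp-8, spp-13, spp-14, spp-16, spp-25, spp-31, cnc-8, irg-2 and irg-7, and they share 22 distinct peaks, since lys-4 and irg-7 have 2 each and spp-2 and spp-6 have the same one. Summits sat close to the start of most genes, and 16 of the 22 lay between 250 bp before and 10 bp after a 5′ end. Of the 22 summits 17 were intergenic. Of the others, those of ilys-5, spp-1 and spp-16 lay in untranslated exon sequence of the gene itself, and those of spp-13 and the upstream one of irg-7 lay in introns of the neighbours tag-123 and F40F4.7.

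The sequences of the 8 strongest peaks, in order of rank, show the DNA that the report turns on, beside that of cnc-8, the weakest. The peaks of spp-2, ilys-5 and cnc-8 have no TGATAA on either strand in the stretch shown. Each stretch runs 75 bp to either side of the summit, 5′ to 3′ in the direction of the gene on ce11. Capitals mark a hexamer bound by GATA factors (TGATAA, or TTATCA on the other strand) and the E-box (CACGTG). Other GATA sequences, such as AGATAA, are not marked, and the stretches of spp-2 and ilys-5 hold that one.
spp-14 (chrX:7725728-7725878, plus strand): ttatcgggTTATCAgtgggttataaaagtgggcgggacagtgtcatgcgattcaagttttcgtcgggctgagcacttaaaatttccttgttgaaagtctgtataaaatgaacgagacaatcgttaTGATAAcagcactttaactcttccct
spp-1 (chrIII:10355583-10355733, minus strand): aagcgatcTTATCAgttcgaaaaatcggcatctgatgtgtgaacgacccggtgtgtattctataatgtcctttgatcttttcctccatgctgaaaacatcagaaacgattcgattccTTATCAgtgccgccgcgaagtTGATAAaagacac
lys-8 (chrII:5585887-5586037, plus strand): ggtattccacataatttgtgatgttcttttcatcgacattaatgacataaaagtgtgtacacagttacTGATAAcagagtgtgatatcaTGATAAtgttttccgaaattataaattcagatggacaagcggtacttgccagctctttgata
spp-2 (chrX:7316835-7316985, minus strand): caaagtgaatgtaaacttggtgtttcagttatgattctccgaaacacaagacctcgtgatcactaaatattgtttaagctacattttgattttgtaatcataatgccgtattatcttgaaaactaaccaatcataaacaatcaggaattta
spp-3 (chrX:7315499-7315649, minus strand): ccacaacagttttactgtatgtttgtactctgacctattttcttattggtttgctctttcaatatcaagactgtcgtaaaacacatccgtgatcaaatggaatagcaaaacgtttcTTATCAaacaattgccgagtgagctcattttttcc
ilys-5 (chrX:6536765-6536915, minus strand): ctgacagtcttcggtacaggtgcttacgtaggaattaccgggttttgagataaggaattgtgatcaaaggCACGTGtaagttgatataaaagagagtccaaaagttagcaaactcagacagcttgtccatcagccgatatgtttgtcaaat
spp-8 (chrIV:8481433-8481583, plus strand): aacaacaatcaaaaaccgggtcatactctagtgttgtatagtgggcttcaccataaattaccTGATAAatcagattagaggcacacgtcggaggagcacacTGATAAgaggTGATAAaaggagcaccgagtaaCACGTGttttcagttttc
spp-5 (chrX:7320437-7320587, minus strand): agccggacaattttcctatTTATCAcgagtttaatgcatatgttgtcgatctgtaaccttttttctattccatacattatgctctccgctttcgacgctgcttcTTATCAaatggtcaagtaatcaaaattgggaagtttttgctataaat
cnc-8 (chrX:10306430-10306580, plus strand): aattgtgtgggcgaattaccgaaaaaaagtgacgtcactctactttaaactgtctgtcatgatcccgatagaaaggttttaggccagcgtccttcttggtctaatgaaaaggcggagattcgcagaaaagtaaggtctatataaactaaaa

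GATA factors such as ELT-2 are the main transcription factors of the worm intestine, and the hexamer TGATAA was frequent at these peaks. TGATAA lay within 150 bp of the summit, on either strand, in 18 of 22 peaks (81.8%), beside 1906 of 3992 optimal peaks in promoter windows of all genes (47.7%). It was found at 10 of 11 spp- peaks and 5 of 6 lys- peaks. At lys-8 there were 4 copies, the nearest centred 4.5 bp from the summit, and spp-8 also had 4, the nearest at 10.5 bp. The peaks without it were those of spp-13, cnc-8 and irg-2 and the nearer one of lys-4. Other GATA sequences, such as AGATAA, were not counted, so a peak without TGATAA may still hold one. The E-box lay at 5 of 22 peaks (22.7%), beside 9.54%, and at ilys-5 its centre was 2.5 bp from the summit. GAGACGCAG, a sequence chosen with earlier results of these same data known, was at none of the 22, beside 10.5%. Median GC content within 150 bp of the summit was 35.2% for these peaks and 36.2% for all optimal peaks in promoter windows. In the 300 bp from 250 bp before to 50 bp after the outermost 5′ end, TGATAA was in 15 of 21 marked genes (71.4%) and in 25 of 51 unmarked ones (49%), beside 30.2% of all protein-coding genes. The marked and unmarked genes were thus both above the share of all genes. By family the hexamer was in 9 of 10 lys-, 18 of 31 spp-, 6 of 8 irg-, 5 of 11 cnc-, 1 of 6 ilys- and 1 of 6 abf- promoters. A match is only a run of letters and no binding of a GATA factor was measured.

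**Figure D1:**
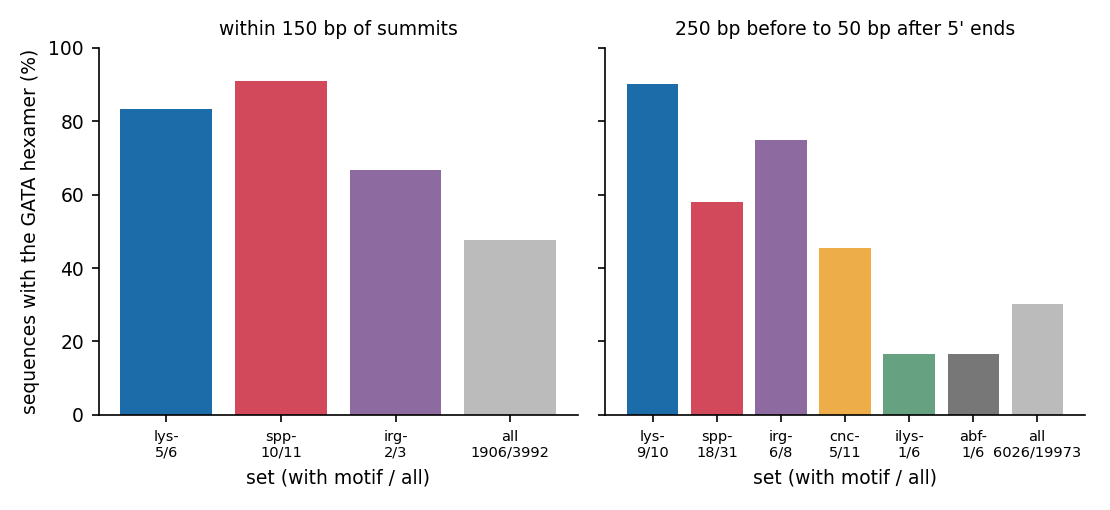
Share of sequences (%) that hold the GATA hexamer TGATAA on either strand, within 150 bp of the summits in promoter windows (left) and in the 300 bp at the outermost 5′ end (right). Under each bar stand the numbers with the hexamer and in all. The single peaks of ilys-5 (with the hexamer) and cnc-8 (without) are not drawn on the left, and the grey bars stand at 47.7% and 30.2%.

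The families were marked unevenly, with the intestinal ones above all genes and the epidermal one below. Of the lys- and spp- genes 17 of 41 were marked (41.5%), with 5 of 10 lys- and 12 of 31 spp- genes (38.7%). Of the cnc- genes 1 of 11 was marked (9.09%), of the ilys- genes 1 of 6, of the irg- genes 2 of 8 and of the abf- genes none of 6. Of the 10 unmarked cnc- genes, 6 are neighbours within 7842 bp on chromosome V. Much of the low cnc- share thus rests on that cluster. With each replicate alone, the lys- and spp- genes together again stood above all genes and the cnc- genes below. The irg- genes rose to 3 of 8 (37.5%) with either replicate alone, and in replicate 1 stood above the spp- genes (35.5%). The added gene differed, irg-4 in replicate 1 and irg-8 in replicate 2, and neither had a region in the other replicate. Among the 7262 strongest regions of replicate 1, which marked 21.0% of all genes, windows of 16 lys- and spp- genes and of no cnc- gene held a region. Among those of replicate 2, which marked 21.7%, it was 18 and again none. Genes are not replicates and neighbours can share a peak, so the difference between families is given without a test.

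**Figure D2:**
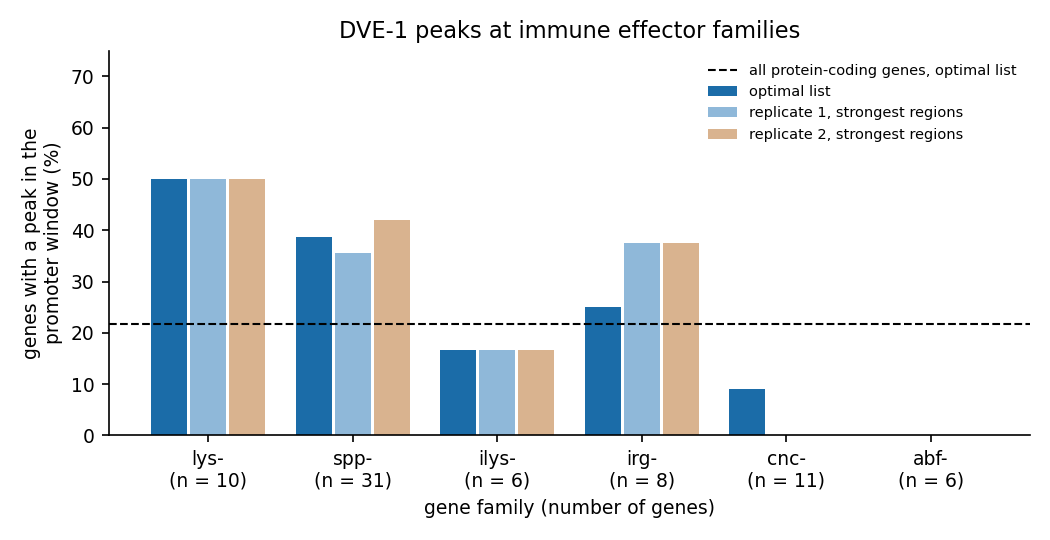
Share of genes (%) with a summit in the promoter window, by family, for the optimal list and for the 7262 strongest regions of each replicate. The dashed line is the 21.7% of all protein-coding genes. The lys-, spp- and irg- bars lie above it in all lists, while cnc- and abf- bars lie below it or at 0.

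The chromosome moved with this count. On chromosome X 10 of 16 genes were marked (62.5%), beside 25% of all genes there, and on the autosomes 11 of 56 (19.6%), beside 21.1%. The autosomal genes as a whole were therefore near the level of all genes. On the autosomes the intestinal families held 10 of 30 marked genes (33.3%), made up of 5 of 10 lys- and 5 of 20 spp- genes, and the cnc- family 0 of 10. On X, 7 of 11 spp- genes and the only cnc- gene were marked. Of the 7 marked spp- genes there, 5 (spp-3, spp-2, spp-6, spp-4 and spp-5) are neighbours within 5386 bp. Part of the share on X, and much of the spp- share, therefore rests on this cluster, where spp-2 and spp-6 share a peak. The other marked genes on X were spp-13, spp-14, ilys-5, irg-7 and cnc-8. On the autosomes the spp- share was 25%, near the 21.1% of all genes. Most cnc- genes are on chromosome V, where 0 of 9 were marked beside 17.0% of all genes, and where 3 of 11 lys- and spp- genes were.

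Clusters of neighbouring genes differed, within the spp- family too. The spp- cluster on chromosome X (7314969 to 7320354) holds spp-3, spp-2, spp-6, spp-4 and spp-5 within 5386 bp, and all 5 were marked. Its strongest summit lay in the gap between the divergent genes spp-2 and spp-6, 92 bp before the former and 431 bp before the latter, and cannot be assigned to either. The summit counted for spp-4 was 964 bp upstream of it, nearer to spp-5, and past the 3′ end of that gene by 217 bp. When a peak counted for 1 gene alone, that with the closest 5′ end at most 2000 bp away, spp-4 and spp-6 were no longer marked. The cnc- cluster on chromosome V (1442342 to 1450183) holds 6 genes, cnc-11, cnc-1, cnc-5, cnc-4, cnc-3 and cnc-2, within 7842 bp. Neither the optimal list nor the relaxed list of the pooled replicates, with 30000 regions, had a summit in it or within 1000 bp of it. Of the 5 spp- clusters, however, 3 held no marked gene. They are spp-27, spp-20, spp-26 and spp-19 on chromosome V, spp-17 and spp-23 on chromosome I, and spp-9 and spp-21 on chromosome X. In the cluster of spp-10 and spp-8 only the latter was marked. The lys- clusters had 2 of 3 genes marked each, and that of ilys-3, ilys-2 and ilys-1 on chromosome IV none.

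**Figure D3:**
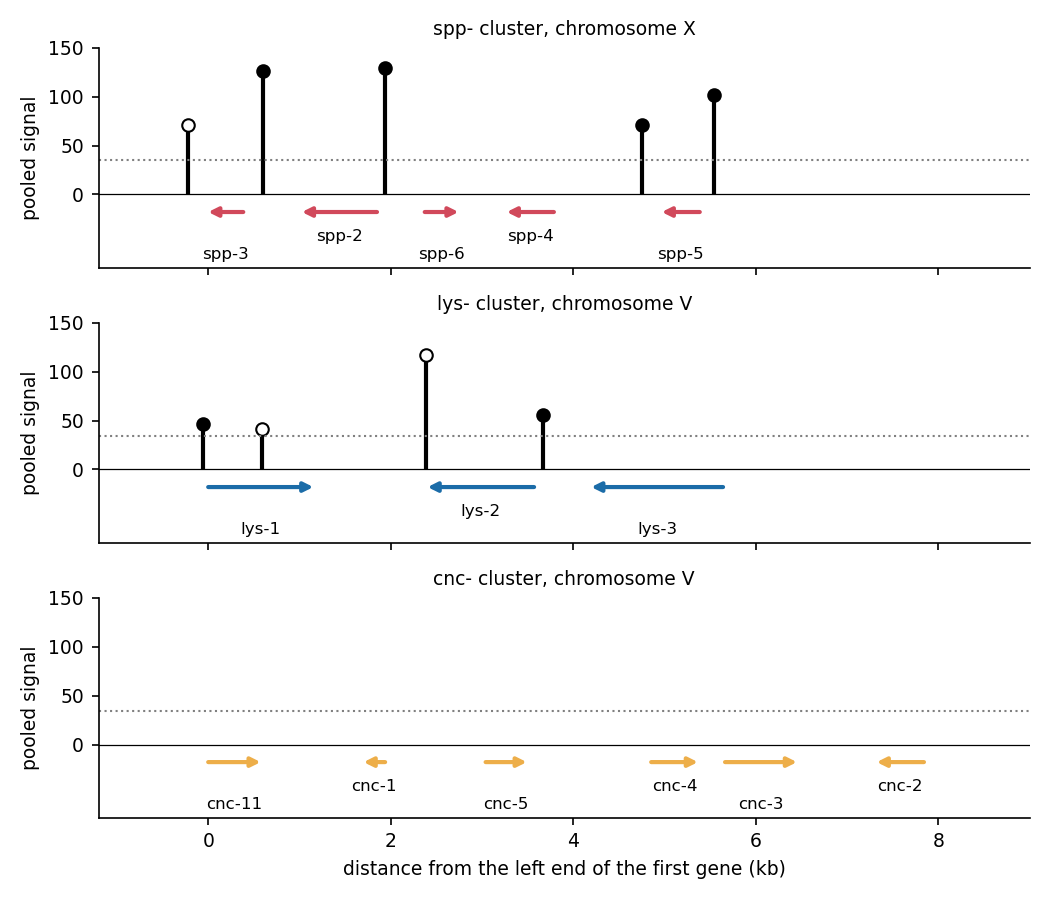
Optimal summits (height: signal in the pooled list) along 3 gene clusters, against distance in kb from the left end of the first gene; arrows show genes and their direction. Filled points are summits in a promoter window, open points lie outside all promoter windows, and the dotted line is the weakest optimal peak (34.7). The spp- cluster has 5 summits, the lys- cluster 4 and the cnc- cluster none.

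Among the saposin-like genes, spp-14 had the strongest peak of all 72 genes, 176 bp upstream of its 5′ end. Its signal was 92.0 in replicate 1, 101 in replicate 2 and 195 in the pooled list, where it ranked 278. Signals of different lists have no common scale, so each replicate's signal was divided by its median over the optimal peaks (29.4 in replicate 1 and 37.8 in replicate 2), which gives a relative signal of 3.13 and 2.68 at spp-14, or 2.90 ± 0.32 (SD, n = 2). The peak at spp-1, a caenopore gene, had relative signals of 2.25 and 2.17 (2.21 ± 0.05, SD, n = 2) and rank 722, with its summit 10 bp inside the gene. In the cluster on X, the peak shared by spp-2 and spp-6 reached 1.92 ± 0.07, that of spp-3 1.93 ± 0.11 and that of spp-5, which encodes caenopore-5, 1.53 ± 0.32 (SD, n = 2). The peak of spp-8, on chromosome IV, had 1.67 and 1.53 (1.60 ± 0.10, SD, n = 2). These 6 peaks were above the median optimal peak in both replicates and among the 1815 strongest of the optimal list. The peaks of spp-13, spp-25, spp-31 and spp-16 lay below it in both replicates, with means between 0.57 and 0.79. The spp-13 summit, 956 bp upstream and in an intron of tag-123, was also within 300 bp of an annotated tRNA, snRNA, snoRNA or rRNA gene. It therefore cannot be assigned to spp-13 alone.

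Of the lysozyme genes, lys-8 stood apart. Its peak 216 bp upstream (chromosome II, 5585905 to 5586089) had signals of 70.9 in replicate 1 and 78.8 in replicate 2, 2.41 and 2.09 times the median (2.25 ± 0.23, SD, n = 2), and rank 764. The other lys- promoter peaks had lower mean relative signals, and those of lys-4 and lys-2 differed most between replicates. At lys-4 the summit 48 bp upstream had relative signals of 1.14 and 0.54, and a second summit 795 bp upstream had 0.90 and 1.55. The order of its 2 peaks was thus opposite in the replicates, and it cannot be said which is stronger. The peak of lys-6, 702 bp upstream, had 0.84 ± 0.07 and that of lys-1, 55 bp upstream, 0.66 ± 0.01 (SD, n = 2). At lys-2, 97 bp upstream, replicate 2 had a relative signal of 1.08 and replicate 1 no region within 100 bp. The nearest region of replicate 1 was 123 bp away, with a relative signal of 0.60 and rank 6966. A like case was spp-4, where replicate 1 had 0.16 within 100 bp of the summit and 1.03 at 110 bp, beside 0.97 in replicate 2.

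The strongest peak at the lys-1, lys-2 and lys-3 cluster was in no promoter window. It lay between the convergent genes lys-1 and lys-2, 22 bp past the 3′ end of lys-2 (chromosome V, 10280190 to 10280369), with relative signals of 1.67 and 1.84 and rank 1250. It was stronger in both replicates than the peaks before lys-1 and lys-2. The intron of lys-1 held a further summit outside the window (rank 6157), and so did the intron of lys-4 (rank 7084).

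The remaining families gave 1 stronger and 4 weaker peaks. At ilys-5, an invertebrate-type lysozyme gene, the summit fell on the 5′ end itself, with relative signals of 1.90 and 1.78 (1.84 ± 0.08, SD, n = 2) and rank 1100. At irg-2 it was 129 bp upstream with 0.90 and 1.25, but it was only 31 bp upstream of the neighbour C49G7.10 and counts for both genes. At irg-7 summits 175 bp and 952 bp upstream had 0.98 ± 0.15 and 0.60 ± 0.14 (SD, n = 2). At cnc-8 the summit was 90 bp upstream (chromosome X, 10306323 to 10306686), with signals of 16.9 in replicate 1 and 20.7 in replicate 2 and 0.56 ± 0.02 times the median (SD, n = 2). It was the weakest of the 22 peaks, at rank 6630 of 7262, and neither replicate held it among its own 7262 strongest regions (ranks 7279 and 7353). The pooled signal of the 17 lys- and spp- peaks ran from 41.7 to 195 with a median of 71.1, all above the 38.4 of cnc-8.

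**Figure D4:**
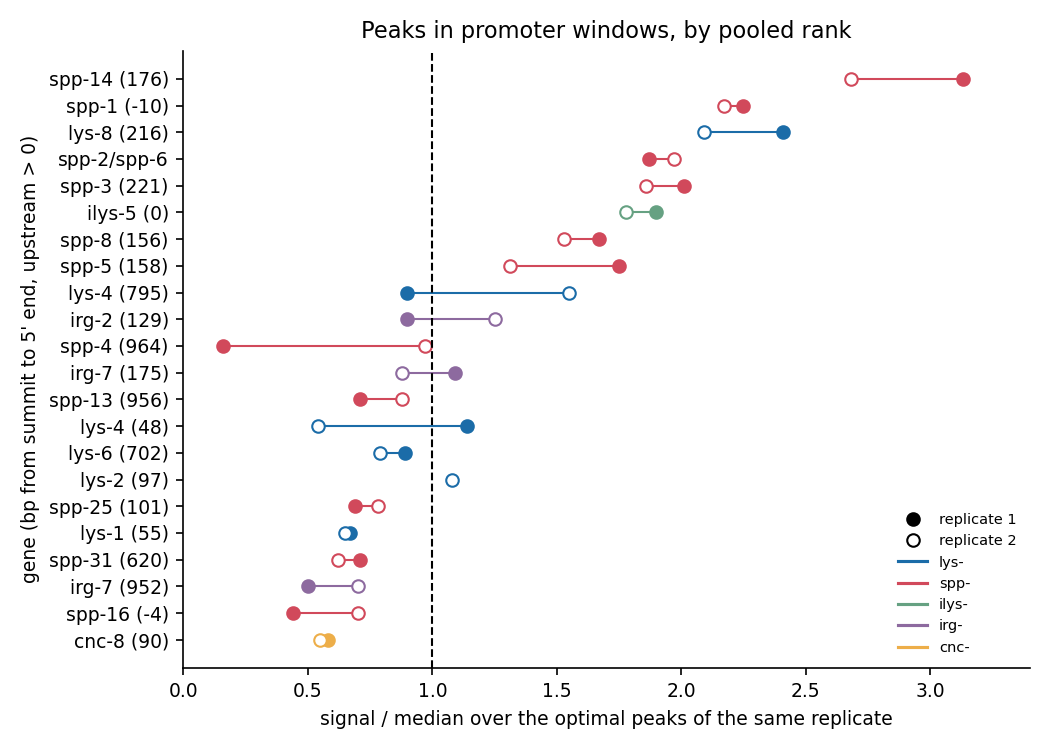
Signal of each of the 22 peaks divided by the median over the optimal peaks of the same replicate, with replicate 1 filled and replicate 2 open; genes are ordered by pooled rank and the distance from summit to 5′ end is in brackets. The 8 strongest peaks lie right of the dashed median in both replicates, and lys-2 has no matched region in replicate 1.

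The median relative signal was 0.98 over the 21 peaks found in both replicates within 100 bp, beside 1.03 for all optimal peaks in promoter windows. It depended on the window, and was 1.53 for peaks at most 500 bp upstream. The share among the 1815 strongest peaks was 8 of 22 (36.4%), beside 26.6%. The spp- peaks had a median of 1.53 and the lys- peaks of 0.84. Across the 21 peaks the log2 ratio between replicates (1 over 2) had a median of 0.07 and an SD of 0.70, close to the SD of 0.66 across all optimal peaks, and 19 of the 21 marked genes were also marked by the 7262 strongest regions of each replicate. The exceptions were cnc-8 and spp-16, the latter at rank 9469 in replicate 1 and 5689 in replicate 2. In this count by gene any region in the window sufficed, also one away from the optimal summit. By peak, 16 of the 22 had a region within 100 bp among the 7262 strongest of each replicate. Among all optimal peaks in promoter windows this held for 2939 of 3992.

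**Figure D5:**
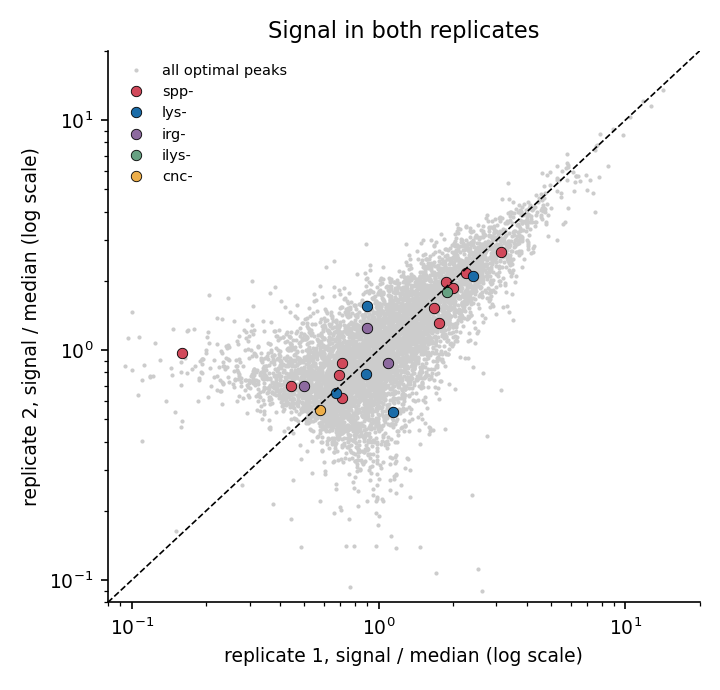
Relative signal of all optimal peaks found in both replicates (grey), with peaks of the immune effector genes in colour; both axes are logarithmic and the dashed line marks equal values. The strongest peaks lie near the line, and spp-4 (0.16 and 0.97) is the coloured point farthest from it.

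The other 51 genes had no optimal summit in the window. The relaxed pooled list put a region in the windows of 6 of them, namely lys-5 (rank 9044), lys-10 (10942), ilys-4 (12031), spp-11 (17217), abf-6 (17563) and spp-17 (25250). No relaxed list, whether of a replicate or pooled, had a region in the window of 9 of 11 cnc- genes (81.8%) or 5 of 6 abf- genes, while this held for 13 of 41 lys- and spp- genes (31.7%) and for 55.0% of all protein-coding genes. Of the unmarked cnc- genes, only cnc-7 had one, in replicate 2 at rank 29688. Among unmarked lysozyme genes, lys-7, known for its part in defence against Pseudomonas aeruginosa, had no region in any list, and neither did lys-9. The median distance from a 5′ end to the nearest optimal summit was 1613 bp for lys- and spp- genes, 9056 bp for cnc-, 12699 bp for abf- and 6123 bp for all genes. Another 10 unmarked genes had a region in the window in 1 replicate alone and none in the pooled list. In 7 of them, lys-3, spp-9, spp-10, spp-18, spp-19, spp-28 and cnc-7, it ranked between 23588 and 29688. Those of the others were among the 7262 strongest of the replicate, at irg-4, with rank 1160 and a relative signal of 1.88 in replicate 1, at spp-26 (rank 4366 in replicate 2) and at irg-8 (rank 5270 in replicate 2).

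Members of these families resemble each other in sequence, so the share of 32-base stretches of the window that occur once in the genome was counted. The median was 100% over all 72 genes, and 7 genes had under 90%, among them lys-10 (62.2%) and lys-3 (67.8%), both unmarked. The lowest value in the cnc- family was 95.9%. The sources used here do not give the read length or the treatment of repeated reads, and their part in the missing peaks was not tested.

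Under the other call rules tried, lys- and spp- genes stayed above all genes. With the 3631 strongest optimal peaks, which mark 12.4% of all genes, 10 lys- and spp- genes (24.4%) and no cnc- gene were marked. A window of 500 bp upstream (17.6% of all genes) left 13 (31.7%) and 1, and 2000 bp (26.6%) gave 20 (48.8%) and 1. Only outermost 5′ ends (20.1%) gave the main counts, and the nearest 5′ end within 2000 bp (21.8%) gave 16 and 1. With any region of the relaxed pooled list (38.7%), 27 of the 72 genes were marked (37.5%), a share near that of all genes, with 21 lys- and spp- genes (51.2%) and 1 cnc- gene.

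Genes known to act upstream of these effectors were counted in the same way. In the p38 MAP kinase cascade, which controls many immune genes of the intestine, 6 of 8 genes were marked (75%), most strongly pmk-2 (2.26 ± 0.31) and the transcription factor gene atf-7 (2.07 ± 0.16), then the phosphatase gene vhp-1 (1.40 ± 0.56; relative signals, SD, n = 2). The unmarked ones were pmk-1 and sek-1. Of 12 genes for transcription factors of immune responses 9 were marked (75%), led by zip-2 (3.33 ± 0.44), which is known to act on irg-1, by cebp-1 (3.18 ± 0.52) and by nhr-49 (2.52 ± 0.09; SD, n = 2). The DBL-1 pathway, a TGF-β pathway known to act on cnc-2, had 4 of 7 marked genes, among them the SMAD gene sma-2 (3.48 ± 0.19), sma-9 (2.60 ± 0.62) and sma-3 (0.75 ± 0.58; SD, n = 2). Of 10 genes of epidermal signalling 3 were marked (30%), and the pseudokinase gene nipi-3 had the strongest peak here, at 4.52 ± 0.07 and rank 57, before rack-1 (0.87 ± 0.15) and tpa-1 (0.52 ± 0.23; SD, n = 2). A further list for epidermal antimicrobial peptide genes joined chosen nlp- genes with every gene named fip- or fipr-. The tissue and function of each gene were not checked. Of these 42 genes 3 were marked (7.14%), also below the level of all genes, namely fipr-17 (1.56 ± 0.35), fip-4 (1.18 ± 0.06) and fip-1 (0.87 ± 0.02; SD, n = 2). All these shares stand beside the 21.7% of all protein-coding genes.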

How the data were processed

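Per the labels, sonicated chromatin was precipitated with an antibody against GFP. The peak lists on ce11 were used as the authors deposited them, with a signal for each region as their peak caller gave it against a control library that was not analysed here. Each replicate and the pool had a relaxed list of 30000 regions, and the 7262 peaks of the optimal list were found to be the strongest pooled ones. For the aligner, the peak caller and the threshold on reproducibility, names and values were not given in the sources used here. An error of the shared control would appear in both replicates. Lists on ce10 were not used.

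Summits were compared with 29314 5′ ends of coding transcripts in Ensembl release 115 (WBcel235, the ce11 build), with sequence from RefSeq. Replicate regions were matched within 100 bp of an optimal summit. Python was used, and the window counts were tested on simulated data. The text names every marked gene, the unmarked genes with a relaxed pooled region and the 3 strongest genes of each further list. Other unmarked genes, and summits outside the windows, were named after their values were seen. The members, lists and call rules were chosen with earlier results of these data known.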

Additional observations from a re-analysis of the deposited data

How the results depend on the processing

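With the 3631 strongest optimal peaks the number of marked immune effector genes moved from 21 to 13, that of lys- and spp- genes from 17 to 10, and that of cnc- genes from 1 to 0. With either replicate alone in place of the optimal list, the cnc- count ranged from 0 to 0. The median relative signal moved from 0.98 to 1.53 with a window of 500 bp upstream, which keeps fewer peaks. It was 1.03 without replicate 1 and 0.90 without replicate 2. Matching replicate regions within 200 bp, chosen after seeing the data, gave 0.99 and moved spp-4 from 0.57 ± 0.58 to 1.00 ± 0.04 (SD, n = 2). No paired analysis was possible because there is 1 group. With 2 replicates the SD is itself imprecise, families are small, and the lists hold no counts from which a limit for an absent peak could be set.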

Other observations

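Genes of the pals- family, known for the intracellular pathogen response, and of the thaumatin-like thn- family were counted in the same way. Of these 43 genes 7 were marked (16.3%), beside 21.7% of all protein-coding genes. The strongest peaks were those of pals-22, a known repressor of that response, at 1.64 ± 0.36 times the median, of pals-20 at 1.32 ± 0.29 and of pals-31 at 1.16 ± 0.50 (SD, n = 2).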
